A study of Mus musculus with 18 samples.

Results

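Acta2, Myh11, Cnn1, Tagln, Smtn, Myl9, Pdgfrb, Rgs5, Cspg4 and Foxs1, which are expressed by the smooth muscle cells and pericytes of the vessel wall, were followed in mouse RPE/choroid after 1 intravitreal injection of balanced salt solution (BSS, the control and the solvent of both steroids), dexamethasone (Dex) or triamcinolone acetonide (TAA). A probe set of the array was taken as a member when the probe-gene annotation gave it the symbol of 1 of these 10 genes alone, and 18 of 45101 probe sets met this rule. Rgs5 had 4 probe sets, Acta2 had 3, Myh11, Pdgfrb and Cspg4 had 2 each, and the other 5 genes had 1 each. All animals were male C57BL6/J mice, given as 2 months old in the labels and as 6 to 8 weeks old in the methods, and each received 1 μL containing BSS alone, 10 μg of Dex or 25 μg of TAA. The doses of the steroids differ. All mice were injected on the same day and the RPE/choroid was taken at day 7 or day 30, so that time since the injection and age at collection cannot be told apart. Each of the 6 groups of treatment and day held 3 arrays, each from a separate animal. The methods state that 4 animals were treated in each group and that the 3 RNA samples of the highest integrity number, at least 7, were hybridized.

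Smooth muscle cells and pericytes, together called mural cells, surround the endothelial tube of arteries, capillaries and veins. Smooth muscle cells carry the contractile apparatus, whose genes are known to be switched on by serum response factor and its partner myocardin at a DNA element called the CArG box. Pericytes are drawn to growing vessels by PDGF-B from endothelial cells, which acts on the receptor encoded by Pdgfrb. The choroid, the vascular layer beneath the RPE, is one of the most richly perfused tissues of the body, and its arterioles and venules carry such cells.

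Of the 10 genes, 6 had an entry in a table of RefSeq promoters of mouse assembly GRCm38.p6. Those of Myh11, Tagln, Pdgfrb and Foxs1 were not used here. The promoters of Acta2 and Myl9 are shown because they alone among the 6 held a CArG box, which is CC, then 6 bases that are A or T, then GG, or the same element with 1 of the 6 bases off. Both are printed from 5′ to 3′ on the strand of the gene up to the base before the annotated start, with the CArG boxes in capitals. The Acta2 sequence lies at chr19:34255374-34255623 on the minus strand and the Myl9 sequence at chr2:156775214-156775463 on the plus strand.
Acta2: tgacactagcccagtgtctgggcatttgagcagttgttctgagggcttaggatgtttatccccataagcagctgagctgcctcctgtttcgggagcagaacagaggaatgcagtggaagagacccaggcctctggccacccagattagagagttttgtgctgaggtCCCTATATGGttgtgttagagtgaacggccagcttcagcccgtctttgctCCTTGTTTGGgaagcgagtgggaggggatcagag
Myl9: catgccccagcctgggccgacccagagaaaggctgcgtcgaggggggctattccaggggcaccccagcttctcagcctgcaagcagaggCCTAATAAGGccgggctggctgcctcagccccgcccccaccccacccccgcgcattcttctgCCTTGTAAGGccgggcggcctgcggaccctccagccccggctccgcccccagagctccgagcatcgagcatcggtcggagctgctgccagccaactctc
The Myl9 promoter held a full CArG box from base -161 to -152 and a box with 1 base off from -99 to -90, counted from the start. The Acta2 promoter held 2 boxes with 1 base off, at -84 to -75 and at -34 to -25. Among 32851 promoters of 300 bases, from 250 before to 50 after the start, 1.63% held a full box and 9.98% a full box or one with 1 base off. The letters AGAACA, the core of the element bound by the glucocorticoid receptor, were searched on both strands and were found at 2 positions of the Acta2 promoter (-216 to -211 and -154 to -149), overlapping no CArG box. Neither element was found in the windows of Cnn1, Smtn, Rgs5 and Cspg4, and AGAACA was found in 19.0% of all promoters. These matches are letters in a window and were not tied to any difference between the groups.

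The arrays were deposited as log2 values in which every probe set has a median of 0 across the 18 arrays. Such values hold differences between arrays and no levels, so that the order of the genes by level and the presence of the labelled tissue's markers could not be read. Array medians ran from -0.04 to 0.02 and array SDs from 0.19 to 0.42. The SD of a probe set over the 18 arrays had a median of 0.16 among all probe sets. Of the members, 16 were above this, up to 0.74 for Myh11 (probe set 1448962_at), and the lower ones were the second probe set of Myh11 at 0.13 and one of Acta2 (1456658_at) at 0.15. Differences are differences of group means in limma, fitted over all 18 arrays, with a standard error (SE) from the spread pooled over the 6 groups. The Benjamini-Hochberg adjustment took in all 45101 p-values of a comparison. A probe set was called at an adjusted p under 0.05. The number of arrays limits the precision, and with 3 against 3 an exact two-sided permutation test cannot give a p below 0.1.

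**Figure D1:**
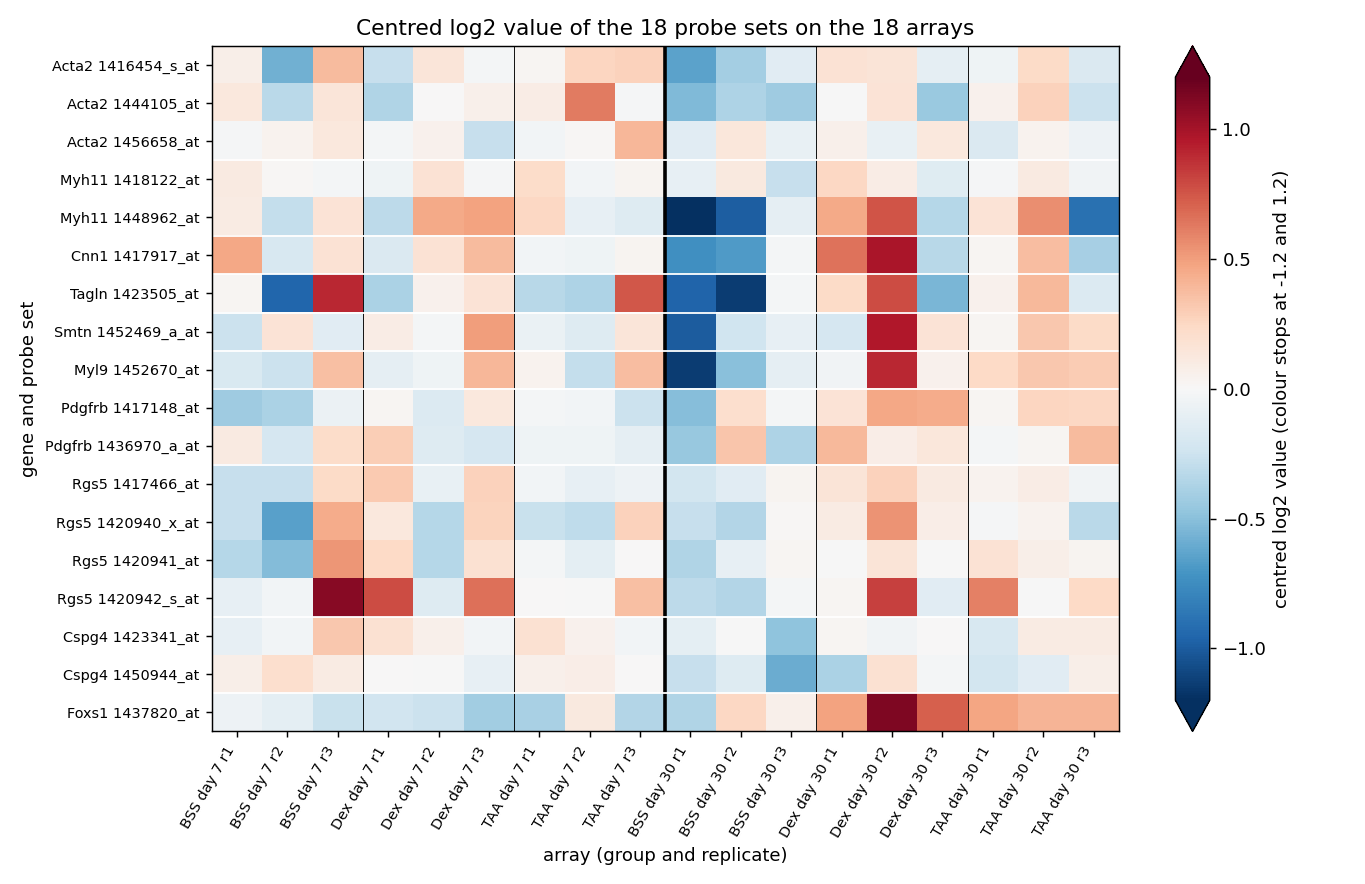
Centred log2 value of each of the 18 probe sets (rows) on each of the 18 arrays (columns, by group and replicate), with colour limited to -1.2 and 1.2 and a thick line between day 7 and day 30. BSS day 30 replicate 1 is blue for nearly all contractile genes, Dex day 30 replicate 2 is red for most of them, and Foxs1 is red on all 6 steroid arrays of day 30.

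At 1 month the 18 probe sets lay higher after Dex than after BSS, in 18 of 18, with a median log2 difference of 0.46 and a range of 0.06 to 1.45. With 1 value per gene this median was 0.77. The median over all probe sets was 0.005, and 51.5% of them were higher. In limma 0 of the 18 were called, as was 0% of all probe sets, and the smallest adjusted p was 0.999. At an unadjusted p under 0.05, 8 were higher and 0 lower, where 2.37% of all probe sets were higher at that p. These 8 were Foxs1, Myl9, Cnn1, Myh11 (1448962_at), Pdgfrb (1417148_at), Smtn, Acta2 (1416454_s_at) and Rgs5 (1417466_at). After TAA, 17 of 18 were higher than after BSS, with a median of 0.35 and a range of -0.03 to 1.10, against a median of 0.003 over all probe sets. None was called, with 0% called among all, and 5 were higher at an unadjusted p under 0.05, where 1.17% of all probe sets were. They were Myl9, Foxs1, Smtn, Acta2 (1444105_at) and Myh11 (1448962_at). In the methods' test, which is unpaired and uses the compared arrays alone, 2 members had an unadjusted p under 0.05 for each steroid. These were Foxs1 and Rgs5 (1417466_at) for Dex and Myl9 and Acta2 (1444105_at) for TAA. Both steroids were compared with the same 3 BSS arrays, so that the similarity of their differences is not a result of its own. The counts include Foxs1 and Myl9, which the study picked from these arrays at 1 month, and the members were chosen with earlier results known. Many of the probe sets also varied together over the arrays. The shares over all probe sets are therefore a description beside these counts and no test of the members.

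Against the BSS arrays of day 7, those of day 30 were low for most of these genes. Foxs1 and Pdgfrb on 1417148_at were instead higher within BSS at day 30, by 0.13 and 0.18. BSS day 30 replicate 1 had the lowest mean over the 10 genes of all 18 arrays, -0.69, while the other BSS arrays of day 30 stood at -0.30 and -0.13. The means of the Dex arrays were 0.17, 0.60 and -0.003 and those of the TAA arrays 0.08, 0.25 and 0.01, so that both steroid groups lay above the 3 BSS arrays without overlap. These means include Foxs1 and Myl9, which the study picked from these arrays. How often the mean of 10 other genes separates the groups in this way was not computed. The means of day 7 ran from -0.23 to 0.22 in BSS, from -0.06 to 0.14 after Dex and from -0.06 to 0.11 after TAA, and the groups overlapped. Without BSS day 30 replicate 1 the count at an unadjusted p under 0.05 fell from 8 to 3 for Dex and from 5 to 1 for TAA, and the medians were 0.32 and 0.27. Without Dex day 30 replicate 2 it fell from 8 to 4. For TAA it was 2 without TAA day 30 replicate 1 or without TAA day 30 replicate 2, and 8 without BSS day 30 replicate 2. In whole tissue of this kind, fewer mural cells and less RNA per mural cell cannot be told apart. The methods remove the sclera during RNA isolation. They state that the choroid adheres firmly to the inner sclera as a rule and that most of it probably stayed attached to it. The amount of vessel wall left in each sample is therefore unknown.

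**Figure D2:**
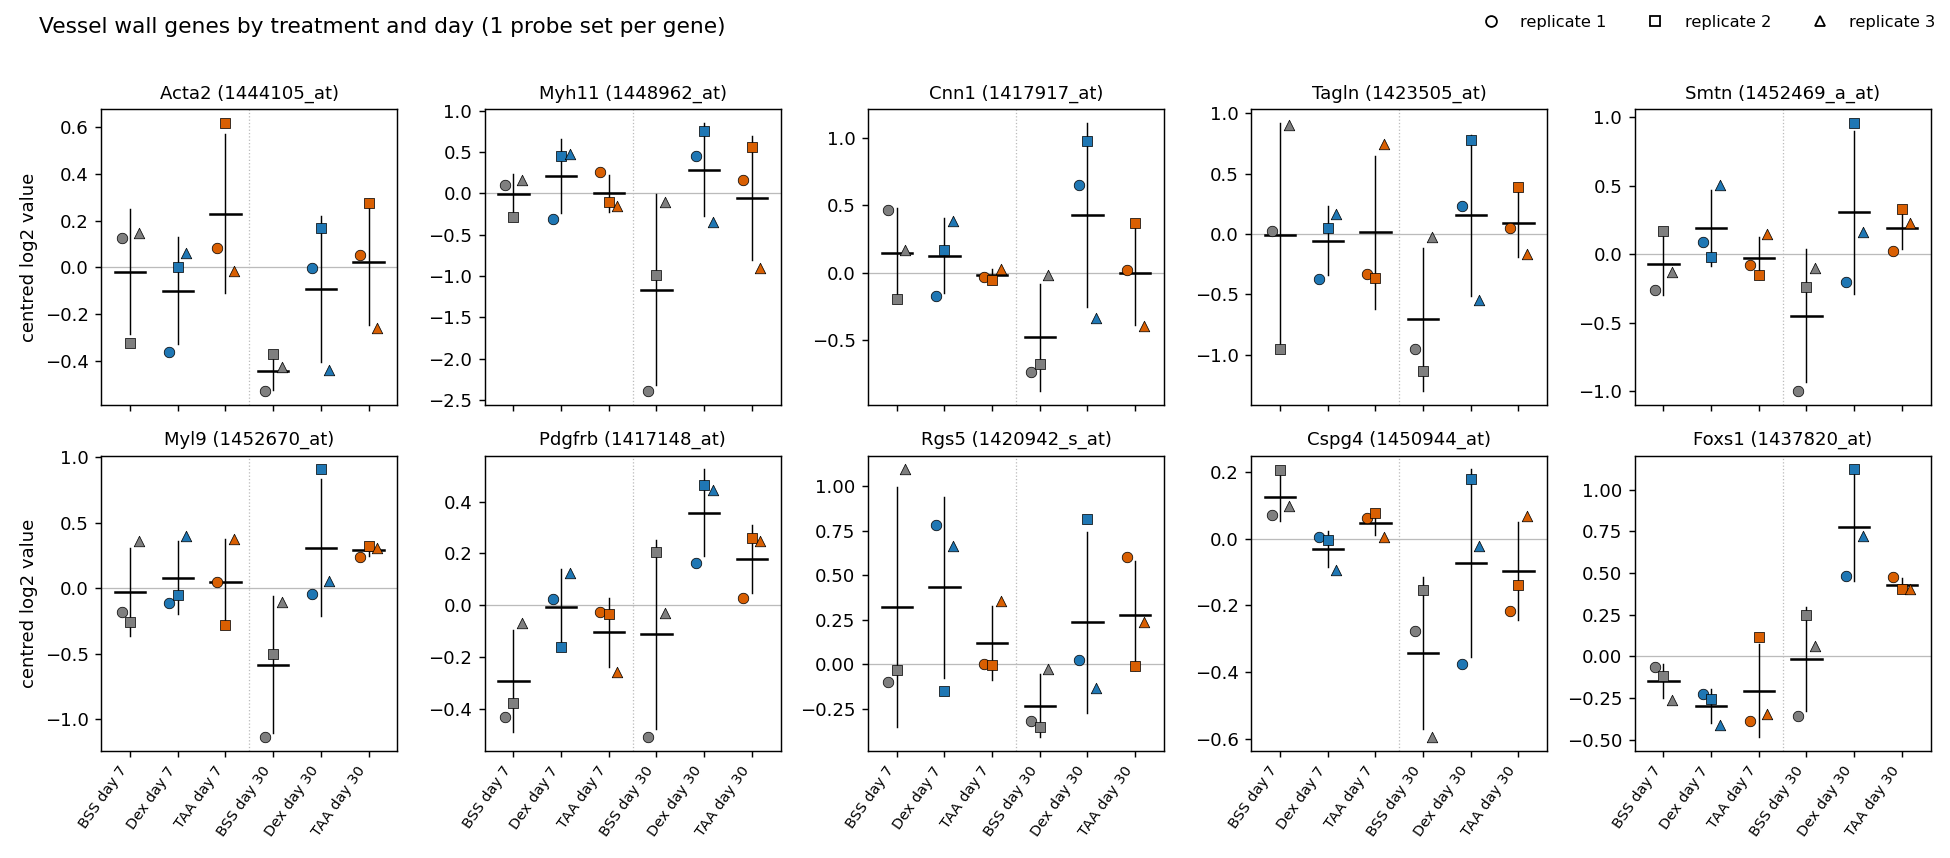
Centred log2 value (y axis, scale differs between panels) of 1 probe set per gene, the one with the largest SD over the arrays, in each group (x axis); points are arrays, shaped by replicate number, horizontal lines are group means and vertical lines 1 SD (n = 3). The BSS day 30 means are the lowest of the 6 groups for every contractile gene, and the Foxs1 arrays after both steroids at day 30 lie above all other arrays.

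Of the contractile genes, Myl9 differed most regularly. Myl9 encodes a regulatory light chain of smooth muscle myosin, whose phosphorylation starts contraction. At day 30 its centred log2 values were -1.14, -0.50 and -0.11 in BSS, -0.04, 0.91 and 0.06 after Dex and 0.24, 0.32 and 0.31 after TAA. All 6 steroid arrays lay above the 3 BSS arrays, and the TAA arrays were close together. Myl9 was higher after Dex by 0.89 (SE 0.28, unadjusted p = 0.00571, adjusted p = 0.999 in limma, 1.85-fold) and after TAA by 0.87 (SE 0.28, unadjusted p = 0.00655, adjusted p = 1, 1.83-fold). In the methods' test the unadjusted p was 0.105 after Dex and 0.0445 after TAA. At day 7 the values were -0.18, -0.26 and 0.36 in BSS, -0.11, -0.05 and 0.40 after Dex and 0.04, -0.28 and 0.37 after TAA, and the groups overlapped. The study picked Myl9 from these arrays at 1 month, so that its position among the members is not independent evidence.

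Myh11, the smooth muscle myosin heavy chain and the most specific contractile marker, gave the largest difference and the largest spread. On probe set 1448962_at the day 30 values were -2.39, -0.99 and -0.11 in BSS, 0.46, 0.75 and -0.34 after Dex and 0.16, 0.56 and -0.90 after TAA. The BSS arrays spanned more than the difference of the means, and 1 array of each steroid fell within their range. Myh11 was higher after Dex by 1.45 (SE 0.47, 95% interval 0.44 to 2.46, unadjusted p = 0.0077, adjusted p = 0.999 in limma) and after TAA by 1.10 (SE 0.47, unadjusted p = 0.0336, adjusted p = 1). This SE pools all 6 groups, while the SD of BSS was 1.15 at day 30 and 0.25 at day 7. In the methods' test, on the compared arrays alone, the unadjusted p was 0.122 after Dex and 0.237 after TAA. Leaving out single arrays moved the Dex difference between 0.84 (without BSS day 30 replicate 1) and 1.98 (without BSS day 30 replicate 3). The values of day 7 were 0.10, -0.29 and 0.17 in BSS, -0.31, 0.46 and 0.48 after Dex and 0.25, -0.10 and -0.15 after TAA. The second probe set, 1418122_at, was higher by 0.15 after Dex and by 0.11 after TAA at day 30. Its correlation with the first over the 18 arrays was 0.41, so that the probe sets of Myh11 disagree in size.

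Cnn1 encodes calponin, an actin-binding protein that restrains myosin activity. Its day 30 values were -0.74, -0.68 and -0.02 in BSS, 0.65, 0.98 and -0.33 after Dex and 0.02, 0.37 and -0.40 after TAA. Dex day 30 replicate 3 lay within the BSS range, and the other Dex arrays were the highest of all 18. Cnn1 was higher after Dex by 0.91 (SE 0.29, unadjusted p = 0.00741, adjusted p = 0.999 in limma, 1.88-fold) and after TAA by 0.48 (SE 0.29, unadjusted p = 0.126). In the methods' test the unadjusted p was 0.117 after Dex and 0.209 after TAA. At 1 week the values were 0.47, -0.19 and 0.17 in BSS, -0.17, 0.17 and 0.38 after Dex and -0.03, -0.05 and 0.03 after TAA, with no separation of the groups.

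Acta2 encodes the actin isoform of smooth muscle and Tagln (transgelin, SM22) and Smtn (smoothelin) encode actin-binding proteins of the same cells. The Acta2 values on probe set 1444105_at at day 30 were -0.53, -0.37 and -0.43 in BSS, -0.003, 0.17 and -0.44 after Dex and 0.05, 0.28 and -0.26 after TAA. The TAA arrays lay above BSS without overlap, by 0.47 (SE 0.20, unadjusted p = 0.033, adjusted p = 1 in limma), and the Dex difference was 0.35 (SE 0.20). At day 7 this probe set read 0.13, -0.33 and 0.15 in BSS, -0.36, 0.003 and 0.06 after Dex and 0.09, 0.62 and -0.01 after TAA. Probe set 1416454_s_at of Acta2 was higher by 0.47 after Dex and by 0.40 after TAA at day 30, and the remaining one, 1456658_at, by 0.06 and -0.03. The third correlated with 1444105_at by 0.01 over the arrays and with 1416454_s_at by 0.30, while the other pair correlated by 0.79. Smtn had means of -0.45 ± 0.48 in BSS, 0.30 ± 0.59 after Dex and 0.19 ± 0.16 after TAA at day 30 (SD, n = 3), with differences of 0.75 (SE 0.26) and 0.64 (SE 0.26). Tagln had means of -0.71 ± 0.59, 0.16 ± 0.67 and 0.09 ± 0.28, with differences of 0.86 (SE 0.44) and 0.80 (SE 0.44), and at day 7 the 3 means lay between -0.05 and 0.01. The spread of Tagln at day 7 was as wide as at day 30, since the BSS arrays ran from -0.95 to 0.91.

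**Figure D3:**
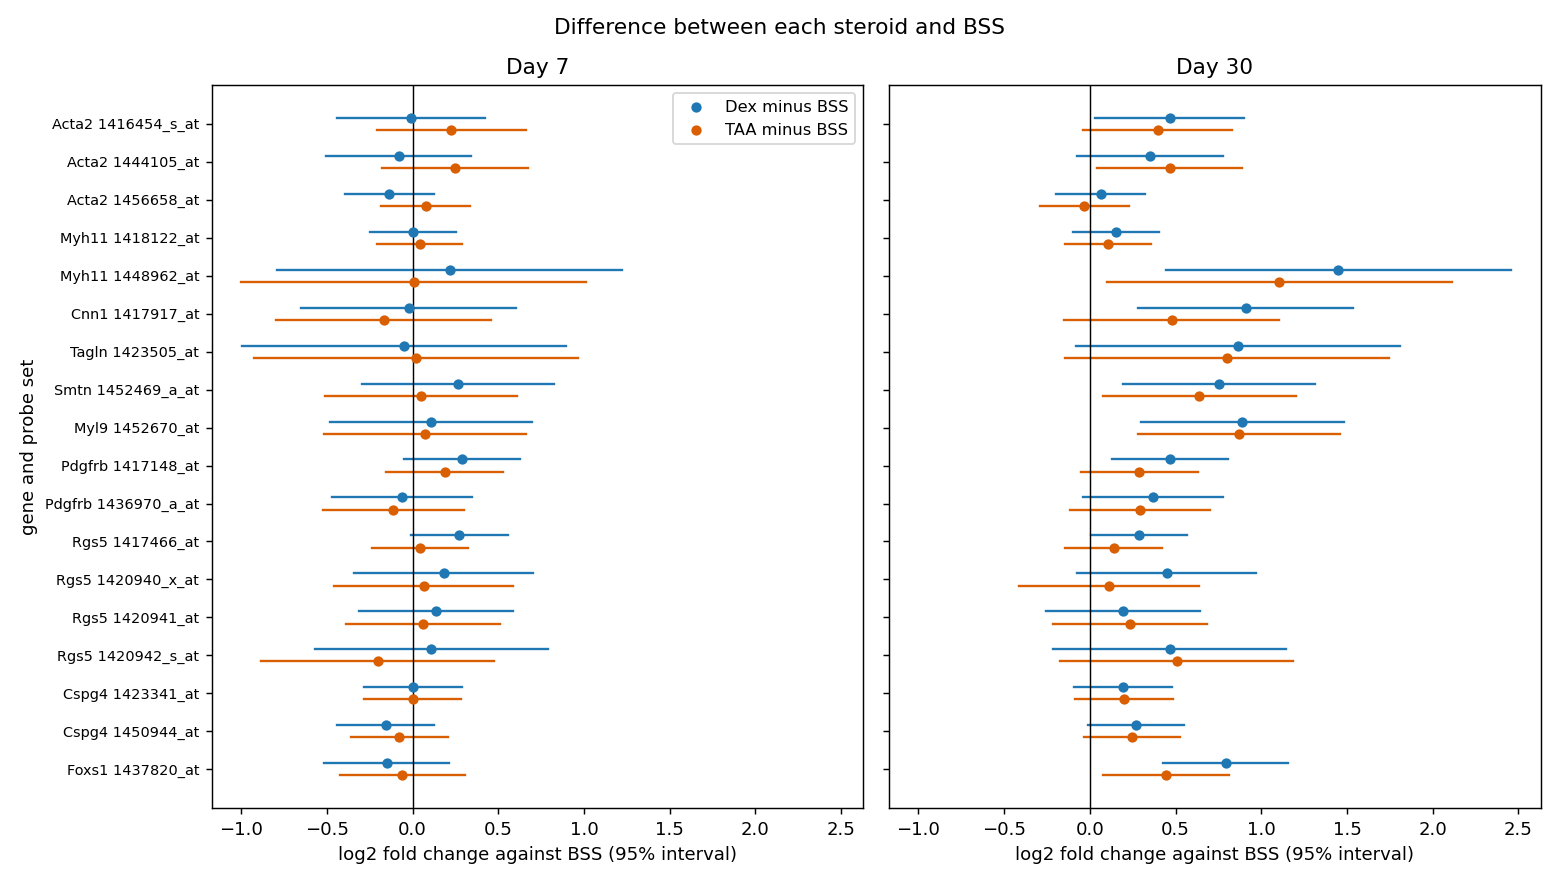
Difference of group means on the log2 scale (x axis) of each steroid from BSS for each of the 18 probe sets (y axis), at day 7 and day 30, with 95% intervals from limma. At day 7 the estimates lie on both sides of 0 and every interval crosses it, and at day 30 all but 1 of the estimates lie above 0, with 8 intervals after Dex and 5 after TAA that do not include it.

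Among the pericyte genes Pdgfrb, the receptor for PDGF-B, read -0.51, 0.20 and -0.03 in BSS, 0.16, 0.46 and 0.44 after Dex and 0.03, 0.26 and 0.25 after TAA at day 30 on probe set 1417148_at. The ranges met, since the highest BSS array lay above the lowest array of each steroid. The difference was 0.47 for Dex (SE 0.16, unadjusted p = 0.0101, adjusted p = 0.999 in limma) and 0.29 for TAA (SE 0.16). In the methods' test the unadjusted p for Dex was 0.113. The day 7 values were -0.43, -0.38 and -0.07 in BSS, 0.02, -0.16 and 0.12 after Dex and -0.02, -0.03 and -0.26 after TAA. The second probe set, 1436970_a_at, was higher at day 30 by 0.37 after Dex and by 0.29 after TAA, and the pair correlated by 0.53 over the arrays.

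Rgs5, a regulator of G-protein signaling that marks pericytes and arteriolar smooth muscle, was the member with the smallest p for Dex against BSS at day 7. On probe set 1417466_at the day 7 values were -0.28, -0.27 and 0.23 in BSS, 0.31, -0.09 and 0.27 after Dex and -0.03, -0.10 and -0.07 after TAA. The difference was 0.27 (SE 0.13, unadjusted p = 0.0551, adjusted p = 1 in limma), and 1 of the 3 BSS arrays lay among the Dex arrays. At day 30 the values were -0.22, -0.13 and 0.03 in BSS, 0.16, 0.28 and 0.11 after Dex and 0.04, 0.09 and -0.04 after TAA. The Dex arrays lay above both other groups, by 0.29 (SE 0.13, unadjusted p = 0.0443, adjusted p = 0.999 in limma) over BSS. The 4 probe sets of Rgs5 moved together over the arrays, with correlations of 0.74 to 0.85, and at day 30 their differences ran from 0.19 to 0.47 after Dex and from 0.11 to 0.51 after TAA. The most variable one, 1420942_s_at, had means of 0.32 ± 0.67 in BSS, 0.43 ± 0.51 after Dex and 0.12 ± 0.21 after TAA at day 7 and of -0.23 ± 0.18, 0.24 ± 0.51 and 0.28 ± 0.31 at day 30 (SD, n = 3).

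Cspg4 encodes the proteoglycan NG2 of the pericyte surface. On probe set 1450944_at it read 0.07, 0.21 and 0.10 in BSS, 0.004, -0.004 and -0.09 after Dex and 0.06, 0.08 and 0.01 after TAA at day 7, and -0.28, -0.15 and -0.60 in BSS, -0.38, 0.18 and -0.02 after Dex and -0.22, -0.14 and 0.07 after TAA at day 30. At day 7 the Dex arrays lay below the BSS and the TAA arrays without overlap. The difference of Dex from BSS was -0.16 (SE 0.13, unadjusted p = 0.254 in limma), and the share of all probe sets so separated at day 7 is not given here. At day 30 both steroid groups overlapped with BSS. Within BSS all 3 arrays of day 30 lay below those of day 7, as did 6.97% of all probe sets (log2 difference -0.47, SE 0.13, unadjusted p = 0.00292, adjusted p = 0.361 in limma). The adjusted p was 0.042 without BSS day 30 replicate 2, and it lay between 0.042 and 0.849 over all left-out arrays. The steroid differences at day 30 were 0.27 and 0.25 (SE 0.13 each), and those of the second probe set, 1423341_at, 0.19 and 0.20.

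Foxs1, a forkhead transcription factor expressed in pericytes and smooth muscle of developing vessels, was the 1 member called in any comparison. Its values at day 7 were -0.06, -0.12 and -0.26 in BSS, -0.23, -0.25 and -0.41 after Dex and -0.39, 0.12 and -0.35 after TAA. At day 30 they were -0.36, 0.25 and 0.06 in BSS, 0.49, 1.12 and 0.72 after Dex and 0.48, 0.41 and 0.41 after TAA. All 6 steroid arrays of day 30 lay above the other 12 arrays, while the BSS arrays of day 30 overlapped with those of day 7. This split was seen in the values, and the share of all probe sets that show it was not computed. Over all treatments the day 30 mean of Foxs1 exceeded that of day 7 by 0.61 (SE 0.10, adjusted p = 0.0151 in limma, 1.53-fold), where 0.399% of all probe sets were called. The adjusted p stayed between 0.00853 and 0.044 when single arrays were left out and was 0.0802 with the methods' test after adjustment. By treatment the difference between the days was 0.13 in BSS, 1.07 after Dex (SE 0.17, adjusted p = 0.0913) and 0.64 after TAA (SE 0.17, adjusted p = 0.752). Without BSS day 30 replicate 1 the adjusted p after Dex was 0.0305.

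At day 30 Foxs1 was higher after Dex than after BSS by 0.79 (SE 0.17, 95% interval 0.43 to 1.16, unadjusted p = 0.000329, adjusted p = 0.999 in limma, 1.73-fold). After TAA the difference was 0.45 (SE 0.17, unadjusted p = 0.0204, adjusted p = 1, 1.36-fold). The Dex difference was larger at day 30 than at day 7 by 0.94 (SE 0.24, unadjusted p = 0.00144, adjusted p = 1) and the TAA difference by 0.50 (SE 0.24, unadjusted p = 0.0552, adjusted p = 0.994). In the F-test over the 6 groups Foxs1 had an adjusted p of 0.145, where 0.0155% of probe sets were called, and in the F-test for treatment at either time an unadjusted p of 0.00595 (adjusted p = 1, with 0% called). The study picked Foxs1 from these arrays after Dex at 1 month, so that its rank among the members is not independent evidence.

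With the day as the comparison the members did not share a direction. Over all treatments 6 of the 18 were higher and 12 lower at day 30, with a median of -0.05 against -0.02 for all probe sets, and 3 had an unadjusted p under 0.05, where 13.8% of all probe sets did. Besides Foxs1 these were Pdgfrb on 1417148_at, higher by 0.27 (SE 0.09, adjusted p = 0.213 in limma), and Cspg4 on 1450944_at, with a log2 difference of -0.22 (SE 0.08, adjusted p = 0.232). Within BSS 16 of the 18 were lower at day 30, with a median of -0.31 and with 0 called, where 0.00222% of all probe sets were called. At an unadjusted p under 0.05, 4 were lower within BSS (Cspg4 and Acta2 on the probe sets above, Myh11 on 1448962_at and Cnn1), where 5.52% of all probe sets were. Within Dex 15 and within TAA 11 of the 18 were higher at day 30, with medians of 0.12 and 0.05. The median within Dex was -0.03 without Dex day 30 replicate 2, and that within TAA was -0.07 without TAA day 30 replicate 2. In those comparisons 0 members were called, where 0.00887% and 0.00222% of all probe sets were, and at an unadjusted p under 0.05 there were 2 (Foxs1 and Pdgfrb on 1417148_at) and 1 (Foxs1), where 3.75% and 4.96% of all probe sets were. The arrays of day 30 lay above those of day 7 without overlap for Foxs1 and Pdgfrb (1417148_at) within Dex, where 3.14% of all probe sets did, and for 4 probe sets within TAA (Foxs1, both of Pdgfrb and 1420941_at of Rgs5), where 4.94% did.

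At 1 week the members differed from BSS in both directions after either steroid. After Dex 10 of 18 and after TAA 13 of 18 were higher than BSS, with medians of 0.003 and 0.04 and ranges of -0.16 to 0.29 and -0.20 to 0.25. Without BSS day 7 replicate 2 the medians were -0.07 and -0.04. None was called, where 0% and 0.00222% of all probe sets were called, and none had an unadjusted p under 0.05, where 2.23% and 3.93% did. The methods' test at the study's thresholds, in words an unadjusted p of at most 0.05 and at least a 1.5-fold change, took 0 members at day 7, where it took 0.195% of all probe sets for Dex and 0.317% for TAA. The member with the smallest p after TAA was Acta2 on 1444105_at, with a difference of 0.25, which was 0.05 without TAA day 7 replicate 2. From day 7 to day 30 the Dex difference grew in 18 of 18, by a median of 0.43 against 0.01 for all probe sets, and the TAA difference in 17 of 18, by a median of 0.27. The latter was 0.54 with 1 value per gene and 0.50 with array weights. In those tests 0 members and 0% of all probe sets were called, and 3 members had an unadjusted p under 0.05 for Dex (Foxs1, Cnn1 and Cspg4 on 1450944_at) and 0 for TAA, where 2.97% and 3.03% of all probe sets did. Each of these changes includes the same BSS arrays of both days. For Cspg4 on 1450944_at the Dex difference was -0.16 at day 7 and 0.27 at day 30.

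At 1 month the methods' test at the study's thresholds took Foxs1 for Dex (0.0288% of all probe sets were taken) and Myl9 for TAA (0.0266%), and after Benjamini-Hochberg adjustment it called 0 members in either comparison. Arrays of the Dex group lay above BSS without overlap for 5 of the 18 probe sets, where 2.59% of all probe sets did. They were Foxs1, Myl9, 1416454_s_at of Acta2 and 1417466_at and 1420940_x_at of Rgs5. Arrays of the TAA group did so for 6 of 18, where 2.86% did. These were Foxs1, Myl9, Smtn, 1444105_at of Acta2 and 1420941_at and 1420942_s_at of Rgs5. Both counts include Foxs1 and Myl9, which the study picked from these arrays.

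TAA and Dex were also compared directly, at doses that differ by weight. At day 30, 14 of 18 probe sets were lower after TAA than after Dex, with a median of -0.07 and a range of -0.43 to 0.12, and 0 were called, as was 0% of all probe sets. None had an unadjusted p under 0.05, where 1.91% of all probe sets did. The member with the smallest p was Foxs1, which differed by -0.35 (SE 0.17, 95% interval -0.71 to 0.02, unadjusted p = 0.0618, adjusted p = 1 in limma), with the 3 TAA arrays below the 3 Dex arrays. Without Dex day 30 replicate 2 this difference was -0.17. For 3 probe sets the TAA arrays lay below the Dex arrays without overlap (Foxs1 and 1417466_at and 1420940_x_at of Rgs5), where 2.84% of all probe sets did. At day 7 the median was -0.04 (0.005 without Dex day 7 replicate 3), 0 were called among the members and 0% among all, and none had an unadjusted p under 0.05, where 2.7% did. The smallest p was that of Rgs5 on 1417466_at, with a difference of -0.23 (SE 0.13, 95% interval -0.51 to 0.05). Both intervals are wide beside the differences themselves, so that the steroids were not shown to act alike.

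**Figure D4:**
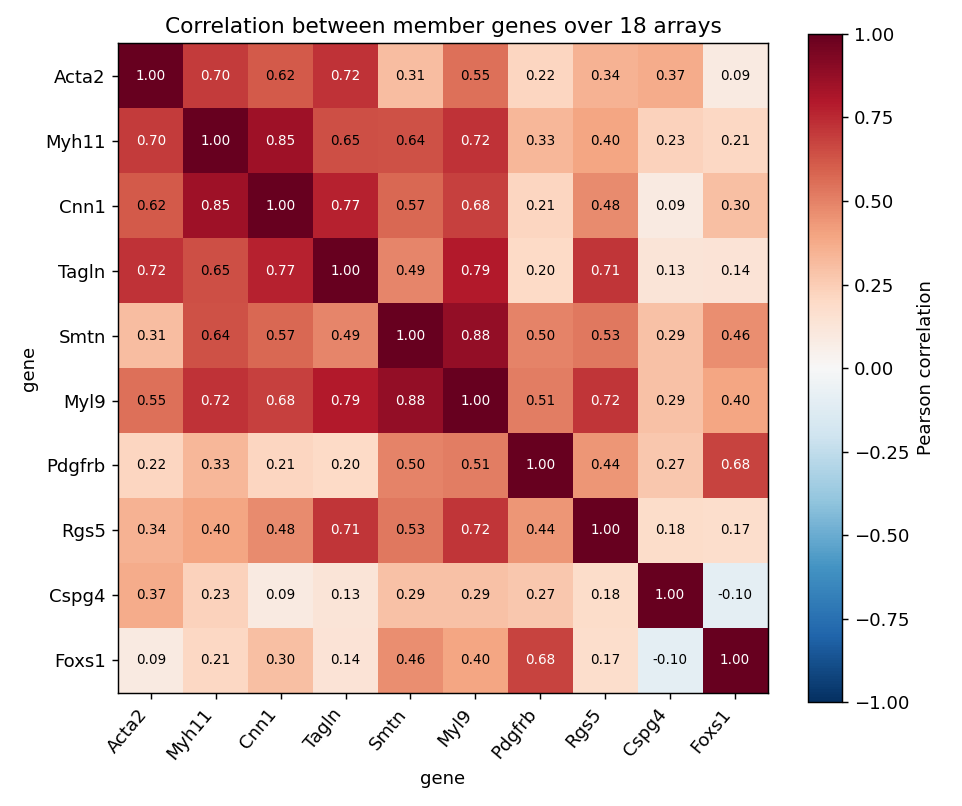
Pearson correlation between the 10 genes over the 18 arrays (mean of the probe sets of a gene), with genes on both axes in the order contractile, pericyte, Foxs1. The block of 6 contractile genes at the upper left holds values of 0.31 to 0.88, and Cspg4 and Foxs1 show the palest rows.

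Over the 18 arrays the correlations among the contractile genes were higher than those among the pericyte genes and Foxs1. Among the 15 pairs of the 6 contractile genes the Pearson correlation had a median of 0.68 and a range of 0.31 to 0.88. Myl9 with Smtn (0.88) and Myh11 with Cnn1 (0.85) were the closest pairs. Among the 6 pairs of Pdgfrb, Rgs5, Cspg4 and Foxs1 the median was 0.22, with Pdgfrb and Foxs1 at 0.68 and Cspg4 and Foxs1 at -0.10. Between the sets of genes the median over 24 pairs was 0.32. After subtraction of each group's mean the medians were 0.56 for the contractile pairs, 0.24 for the pairs of pericyte genes and Foxs1, and 0.21 between these sets. These are descriptions over arrays that share their groups and, in BSS day 30 replicate 1 and Dex day 30 replicate 2, the lowest and the highest array.

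The genes outside the set whose pattern over the 18 arrays was most like the mean of the 10 were Tgfb1i1, which encodes a focal adhesion protein also called Hic-5 (Pearson correlation 0.87), Arhgap8 (0.87), the Hedgehog signal transducer Smo (0.83), 2310022B05Rik (0.83), Rarres2, which encodes chemerin (0.83), the Wnt receptor Fzd1 (0.82), Slc7a2 (0.82), the Wnt inhibitor Nkd2 (0.82), Pard6g (0.81) and Tlcd1 (0.81). They were the closest 10 of 18184 genes, and 153 reached 0.7. After subtraction of the group means 1 of these 10 remained among the closest 10, namely Nkd2 (0.90). At day 30 Tgfb1i1 differed from BSS by 0.67 after Dex and by 0.48 after TAA, and Nkd2 by 0.39 and 0.42.

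Wider lists of mural cell genes and a list of signals to these cells were set beside the members at gene level. The signal list also holds genes of the sending cells, such as Pdgfb. Of all 18194 genes, 53.7% were higher after Dex than after BSS at day 30. Of 27 measured genes of the contractile apparatus and its regulators other than the members, 25 were higher after Dex, with a median of 0.24, and 0 were called, with 0% among all genes. The largest differences were those of Ppp1r14a (0.90, SE 0.27), which encodes an inhibitor of myosin phosphatase, Aoc3 (0.60, SE 0.23), Actg2, the enteric smooth muscle actin (0.56, SE 0.22), and Flna, the actin crosslinker filamin A (0.46, SE 0.19). Of 24 further pericyte genes 20 were higher, with a median of 0.27, and 0 were called. Vtn (-0.70, SE 0.85) and Zic1 (0.53, SE 1.495) spread widely, while Notch3, the Notch receptor of mural cells, was higher by 0.58 (SE 0.20) and Mcam by 0.57 (SE 0.18). Of 11 transcription factors 10 were higher (median 0.20, 0 called), led by Foxc1 (0.46, SE 0.20), Foxd1 (0.34, SE 0.23), Tcf21 (0.27, SE 0.16) and Prrx1 (0.27, SE 0.13). Of 22 genes of the PDGF, Notch and TGF-beta signals that act on mural cells 20 were higher (median 0.14, 0 called), led by Eng (0.48, SE 0.20), Edn1 (0.40, SE 0.24), Heyl (0.39, SE 0.19) and Acvrl1 (0.35, SE 0.21). The unadjusted p was under 0.05 for 5, 6, 2 and 3 higher genes of these lists in the order given, where 2.85% of all genes were higher at that p. Among them was Srf, which encodes serum response factor and was higher by 0.20 (SE 0.08). Of the 4 lists, 1 gene was lower at that p, the pericyte gene Rgs4 (-0.39, SE 0.17), where 1.85% of all genes were. Srf and Rgs4 are named here after their values were seen.

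After TAA at day 30 the same lists held 20 of 27 contractile genes higher (median 0.10), 20 of 24 pericyte genes (0.18), 10 of 11 transcription factors (0.11) and 20 of 22 signaling genes (0.14), with 0 called in each list and 0% among all genes. The unadjusted p was under 0.05 for 3 contractile genes, 1 transcription factor and 1 signaling gene that were higher, where 1.33% of all genes were. At that p 2 contractile genes (Hspb6 and Des) and 1 transcription factor (Mef2c) were lower, where 1.24% of all genes were. Des, which encodes the intermediate filament protein desmin, differed by -0.25 (SE 0.10) and is named here after its value was seen. Pde5a, the cyclic GMP phosphodiesterase of smooth muscle, was higher by 0.50 (SE 0.21) and Flna by 0.47 (SE 0.19), while Hspb6, a small heat shock protein of muscle, differed by -0.45 (SE 0.19). Foxc1 was higher by 0.45 (SE 0.20) and Notch3 by 0.40 (SE 0.20), and Mef2c differed by -0.38 (SE 0.15). Over the days, regardless of treatment, 21 of 27 contractile and 17 of 24 pericyte genes were lower at day 30, with 0 called in either list, where 78 of 18194 genes (0.429%) were. Among them were the pericyte genes Ebf1 (-0.34, SE 0.09) and Mcam (-0.35, SE 0.10) and the endothelin receptor gene Ednrb of the contractile list (-0.39, SE 0.12).

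**Figure D5:**
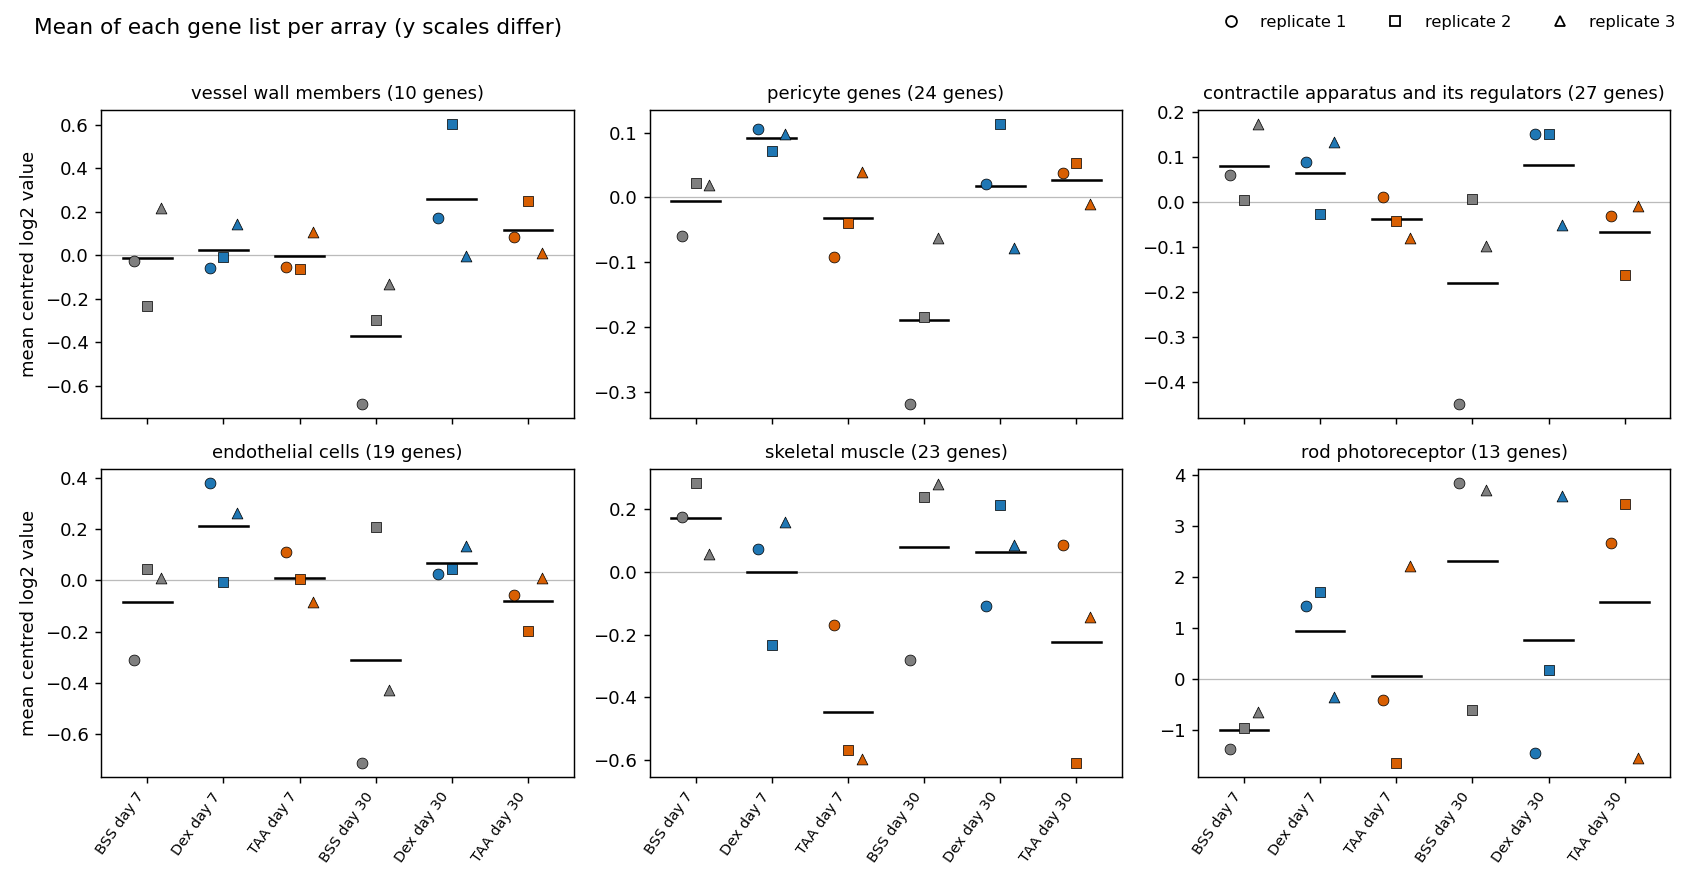
Mean centred log2 value (y axis, scale differs between panels) of the 10 vessel wall genes and of 5 other gene lists on each array (points, shaped by replicate number) by group (x axis), with group means as lines (n = 3). BSS day 30 replicate 1 is the lowest array for the vessel wall, pericyte, contractile and endothelial genes and the highest for rod genes.

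Genes of other cell types were set beside the members, and their directions at day 30 differed from list to list. The endothelial list, which marks the tube that mural cells surround, was higher at day 30 in 19 of 19 measured genes after Dex (median 0.36) and in 19 of 19 after TAA (median 0.24), with 0 called. At an unadjusted p under 0.05 in limma, 7 of the 19 were higher after Dex and 0 after TAA, where 2.85% and 1.33% of all genes were. On BSS day 30 replicate 1 the mean of the endothelial list was -0.71, against 0.21 and -0.43 on the other BSS arrays of that day. The endothelial genes were also higher after Dex at day 7, in 19 of 19 (median 0.31), where the members were higher in 5 of 10 genes. The rod photoreceptor list (13 measured genes) had means of 3.85, -0.60 and 3.71 on replicates 1, 2 and 3 of BSS at day 30, and ran from -1.44 to 3.59 over the Dex and from -1.54 to 3.43 over the TAA arrays of that day, so that these genes differed widely within each group. At day 30 all 13 rod genes were lower after either steroid (medians -1.66 and -0.82). The 23 skeletal muscle genes, which share actin and myosin functions but mark the extraocular muscles, were split after Dex (12 higher, median 0.006) and lower in 23 of 23 after TAA (median -0.28). Melanocyte genes were higher in 9 of 9 after Dex (median 0.21, with 2 at an unadjusted p under 0.05) and in 8 of 9 after TAA (median 0.11), and their mean was -0.40 on BSS day 30 replicate 1, the lowest of the 18 arrays, against -0.01 and -0.25 on the other BSS arrays of that day. Fibroblast genes were higher in 9 of 11 after Dex (median 0.22, with 2 at an unadjusted p under 0.05) and in 7 of 11 after TAA (median 0.12), with -0.45 on BSS day 30 replicate 1 and -0.09 and -0.19 on the others. Of 13 RPE genes 4 were higher after Dex (median -0.04) and 9 after TAA (median 0.02). In these 3 lists 0 genes were called. The part of these in the differences of the members was not tested. Over the 18 arrays the mean of the members correlated by 0.80 with that of the pericyte list, 0.67 with the contractile list, 0.59 with the signaling list, 0.58 with the transcription factors, 0.40 with the endothelial list, 0.31 with melanocyte genes, 0.20 with fibroblast genes, 0.13 with genes of the glucocorticoid response, -0.01 with skeletal muscle, -0.19 with rods and -0.38 with RPE genes. The ranks gave lower values, 0.61 for pericytes, 0.36 for the contractile list and 0.07 for the endothelial list.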

How the data were processed

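According to the paper, the authors normalized the scanned arrays by RMA in GeneSpring, with the median of all samples as the baseline. The deposited matrix holds log2 values of 45101 probe sets on 18 arrays. Each probe set had a median of 0 within 5e-07, so that no filter on weak signals was possible. Of the probe sets 34958 were annotated with 1 symbol, 932 with several and 9211 with none. Of the first, 34754 were found in a RefSeq gene table, which changed 0 symbols.

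Groups were taken from the sample labels and no array was left out. Tests used limma 3.58.1 under R 4.3.3 (1 mean per group, 12 residual degrees of freedom, prior 3.29), two-sided, with Benjamini-Hochberg adjustment over all probe sets and a call at 0.05. Gene lists used the mean of the single-symbol probe sets of a gene (18194 genes). The methods' test was the unpaired test on the same values. The p-values set a difference against the spread between arrays of a group, which limma pools over the 6 groups. Each array was from a separate animal, so that differences between animals and between dissections cannot be told apart in this spread. The kit for labelling RNA is given differently in labels and methods.

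The members and lists were chosen with earlier results of these data known. Values are given for every array where a member had an unadjusted p of 0.01 or less or the smallest p of a comparison. At most 4 genes of a list are named, those with the largest differences. The genes closest to the mean of the members were ranked by Pearson correlation. Alternatives were each array left out, array weights, a robust prior, the compared arrays alone, centred array medians, quantile normalization, single-symbol probe sets alone, the replicate number as a block, 1 value per gene, ranks, residuals from the group means and the methods' test. The test was tested on simulated data. Promoters are from RefSeq (GRCm38.p6). Python 3.11.15, numpy 2.4.6 and matplotlib 3.10.9 were used.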

Additional observations from a re-analysis of the deposited data

How the results depend on the processing

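Foxs1, the 1 member called, was higher at day 30 over all treatments under each alternative run. The medians of the members, which carry no test, changed sign when 1 array was left out in 5 comparisons, to as far as -0.0323 within Dex, -0.0682 within TAA, -0.0676 for Dex and -0.0434 for TAA at day 7, and 0.00469 for TAA against Dex at day 7. They also changed sign at day 7 with array weights for both steroids and with quantile normalization for Dex. The limits are those of 3 arrays per group, centred values without levels, and a pool of BSS arrays that enters every steroid difference. With array weights from limma the members called were 2 over the days and 3 within BSS, where 2409 and 3234 of all probe sets were called, Cspg4 within BSS had an adjusted p of 0.0283 (log2 difference -0.437), 10 members had an unadjusted p under 0.05 for TAA at day 30 and 6 over the days, and the growth of the TAA difference had a median of 0.504. The methods' test after adjustment called 0 members over the days (Foxs1 adjusted p = 0.0802) and left 2 at an unadjusted p under 0.05 for each steroid at day 30. At the study's thresholds it took 1 member for each steroid at day 30, 1 within Dex, 1 within TAA and 2 over the 6 groups (there at an unadjusted p of at most 0.05 alone). With 1 value per gene the median at day 30 was 0.772 after Dex, and the growth of the TAA difference was 0.543. The cause of these shifts was not tested, except that 1 value per gene gives Rgs5 and Acta2, with several probe sets each, less weight.

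Over the 18 fits that each left out 1 array, the number of members with an unadjusted p under 0.05 ran from 3 to 10 for Dex and from 1 to 8 for TAA at day 30, and from 3 to 5 over the days. The median of the members for Dex at day 7 ran from -0.0676 to 0.22, the latter without BSS day 7 replicate 3. The number called within BSS ran from 0 to 1 (Cspg4, log2 difference -0.562 without BSS day 30 replicate 2) and within Dex from 0 to 1 (Foxs1, 1.07 without BSS day 30 replicate 1). Of the 10 genes most like the members, 1 remained when group means were subtracted. The replicate numbers gave no sign of pairing the arrays. Among 45 pairs of the same number the deviations from the group means had a median correlation of -0.0471, with 13 over 0.1. Among 90 pairs of different numbers the median was 0.0416, with 38 over 0.1. Single pairs of either kind ranged widely, from -0.694 to 0.558 and from -0.637 to 0.758. With the replicate block the count of members called changed in no comparison, and Foxs1 over the days had an adjusted p of 0.011.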
